A study of Mus musculus with 3 samples.

Results

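The genes described here are 48 genes of DNA replication and mitosis, a named list that was matched by symbol to the 32285 genes of the count tables. All 48 matched, and they fall into 20 replication and 28 mitosis genes. They were measured by single-cell RNA-seq in bone marrow derived macrophages (BMDMs), which are macrophages grown from marrow cells in medium with a macrophage growth factor. The marrow came from female C3H/HeN mice of 6 to 8 weeks and was pooled, so no library stands for 1 animal, and no genetic change was made. Ctrl was treated with PBS and no lipoprotein, while LP1 and LP4 received 1 µg/mL of purified lipoproteins of the Lyme disease spirochete (*Bb*LP) for 1 and 4 hours. The PBS cells were harvested at 4 hours, so in LP1 over Ctrl the lipoproteins and the time of harvest cannot be told apart. Each condition is 1 library made from 3 pooled wells, so no difference between conditions has a replicate check and no test was made, and all intervals below are at 95% and cover counting error only.

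A cell that divides first copies its DNA and then separates the copies. The MCM ring is loaded on DNA by CDC6 and CDT1 before S phase, opens the double helix during it, and hands the strands to polymerases held by the PCNA clamp. Later the chromosomes are condensed, attached through kinetochores to a spindle and pulled apart under the control of CDK1 with its cyclins and of the anaphase-promoting complex. Many of these genes are switched on in waves, the first under E2F factors and the second under complexes that read CCAAT boxes and CHR elements. Macrophages in culture keep dividing in the presence of their growth factor, and stimulation through Toll-like receptors is known to hold this division back. For these cells, the authors' methods name the growth factor medium at the differentiation step, but not for the overnight culture and treatment that followed.

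The filtered libraries held 4670 to 6071 cells and 35688939 to 61402275 unique molecular identifiers (UMIs, 1 per captured transcript). The median cell had 5133 (Ctrl), 9343 (LP1) and 11784 UMIs (LP4), and the median mitochondrial share was 1.97%, 2.84% and 3.17%. Levels below are therefore UMIs per 1000000 UMIs of the library (CPM), and shares of cells are given after each cell was thinned to 2000 UMIs. All 8 macrophage markers were detected in every library, with a summed level of 10973 to 11989 CPM. The 8 neutrophil markers summed to 373 CPM (Ctrl), 276 (LP1) and 522 (LP4). Dendritic cell markers summed to 71.6 to 89.0 CPM, of which the highest single gene gave 69.1 to 85.1 CPM, so the others were near 0. Stromal markers summed to 3.67 to 17.3 CPM, and erythroid, lymphoid and mast cell markers to under 1 CPM. Between 4 and 10 barcode sequences were shared by any pair of libraries.

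The promoters of both lists differed in the short motifs they hold. RefSeq promoters of 300 bases (250 before the start site and 50 from it on, build GRCm38.p6) were at hand for 41 of the 48 genes, as 44 promoters. *Mcm4*, *Gins2*, *Smc4*, *Ccna2*, *Aurkb*, *Tpx2* and *Stmn1* had no entry. An E2F element, searched on both strands as TTCCCGC, further as TTGGCGC, also as TTCGCGC and finally as TTGCCGC, was in 14 of 20 replication promoters (70%) and in 4 of 24 mitosis promoters (16.7%), against 9.57% of all 32817 promoters. A CHR element, TTTGAA or TTCGAA on both strands, was in 2 of 20 replication promoters (10%) and in 20 of 24 mitosis promoters (83.3%), against 19.2% of all. The CCAAT box, which read on the other strand can share letters with TTGGCGC, was in 12 replication promoters (60%) and 22 mitosis promoters (91.7%), against 37.4% of all. CCAAT and CHR stood together in 20 of the 24 mitosis promoters and in 7.51% of all promoters. The replication promoters without an E2F match were those of *Mcm2*, *Dut*, *Pcna*, *Tk1*, *Tyms* and *Ung*, and the mitosis promoters without a CHR match were those of *Birc5*, *Ccnb1*, *Cenpe* and *Nusap1*. The RefSeq start lay within 50 bases of the outermost GENCODE start of the gene for 31 of the 44 promoters, more than 50 bases inside the gene for 11, *Cdc6* and *Pcna* among them, and more than 50 bases upstream for 2, so some windows are not the sequence before the first exon of the annotation.

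**Figure D1:**
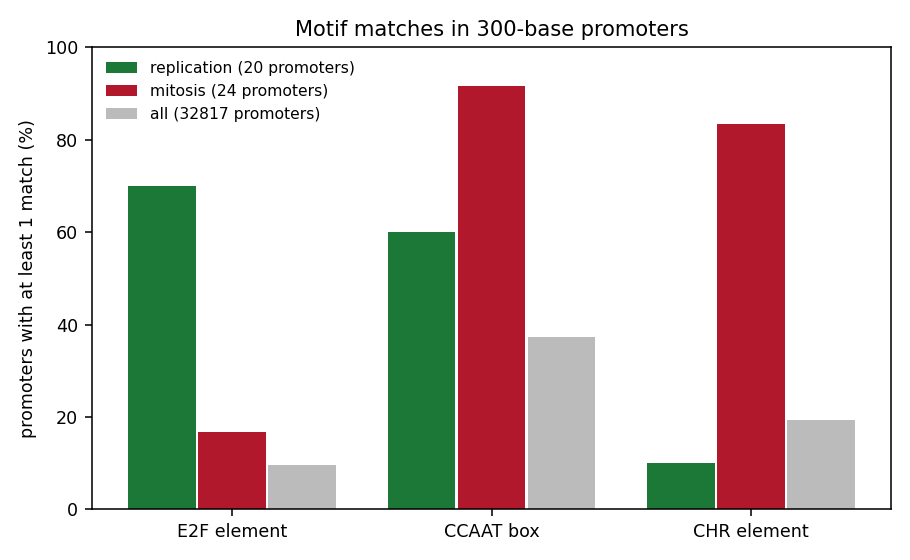
Percent of 300-base RefSeq promoters with at least 1 match of each motif on either strand, for the replication genes (20 promoters), the mitosis genes (24 promoters) and all genes (32817 promoters). The E2F bar is tallest for replication genes at 70%, and the CHR bar for mitosis genes at 83.3%.

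The 200 bases before the RefSeq start site are shown for 4 genes, with motif matches in capitals, to let the letters of both kinds of promoter be compared. They are reference sequence, not sequence of the C3H/HeN strain, and each is read on the strand of its gene. *Mcm5* (chr8:75109309-75109508, plus strand) and *Mcm6* (chr1:128359706-128359905, minus strand) are genes of the replication helicase and hold E2F elements with CCAAT boxes. *Top2a* (chr11:99024190-99024389, minus strand) and *Mki67* (chr7:135716380-135716579, minus strand) are genes of mitotic chromosome structure and hold CCAAT boxes with CHR elements.
Mcm5: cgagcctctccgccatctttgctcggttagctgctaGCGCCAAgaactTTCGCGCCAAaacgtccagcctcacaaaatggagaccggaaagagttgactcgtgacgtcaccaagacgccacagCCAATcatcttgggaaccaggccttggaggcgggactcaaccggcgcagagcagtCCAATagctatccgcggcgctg
Mcm6: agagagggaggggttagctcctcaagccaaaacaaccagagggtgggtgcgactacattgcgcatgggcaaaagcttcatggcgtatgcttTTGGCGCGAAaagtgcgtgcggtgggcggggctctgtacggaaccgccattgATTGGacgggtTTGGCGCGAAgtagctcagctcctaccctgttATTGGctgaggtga
Top2a: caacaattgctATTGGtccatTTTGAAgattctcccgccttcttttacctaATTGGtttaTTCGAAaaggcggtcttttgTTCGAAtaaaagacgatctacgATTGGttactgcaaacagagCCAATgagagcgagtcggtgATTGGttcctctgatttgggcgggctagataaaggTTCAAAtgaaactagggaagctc
Mki67: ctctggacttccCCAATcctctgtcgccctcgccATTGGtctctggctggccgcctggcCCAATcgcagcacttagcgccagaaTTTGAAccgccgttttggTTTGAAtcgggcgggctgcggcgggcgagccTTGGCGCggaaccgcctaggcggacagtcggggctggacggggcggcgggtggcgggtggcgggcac
In *Mcm5* the E2F matches begin 164, 152 and 149 bases before the start site, the last 2 sharing letters, and CCAAT boxes follow at 77 and 22 bases. *Mcm6* has overlapping E2F matches at 109 and 106 bases and again at 46 and 43 bases. *Top2a* has CHR elements at 179, 140, 120 and 23 bases among 5 CCAAT boxes, and *Mki67* has CHR elements at 116 and 98 bases, downstream of 3 CCAAT boxes, with 1 E2F match at 67 bases. A match describes the letters of these windows and was not tested as a binding site.

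After 1 hour of *Bb*LP, 7 of the 44 genes that passed a filter of 5 CPM on the mean of the 3 libraries were more than 1.5-fold higher than in Ctrl, and none was lower. Over all 9057 genes that passed the filter, 4.17% were higher and 2.84% lower by this rule. The median log2 ratio of LP1 over Ctrl was 0.34 for the 19 replication genes and 0.23 for the 25 mitosis genes that passed, beside -0.02 for all genes. After 4 hours, 3 genes were higher and 13 lower than in Ctrl, where 19.1% of all genes were higher and 23.6% lower, so the share of the whole list that was lower, 29.5%, was near that of all genes. The replication genes held 9 of the 13 lower genes and had a median of -0.57, the mitosis genes held 4 and had a median of -0.28, and the median of all genes was -0.09. The lower genes were 47.4% of the replication and 16% of the mitosis genes that passed, so the mitosis share lay below the 23.6% of all genes. Between LP1 and LP4, none of the 44 genes was higher and 22 were lower in LP4 (14 replication and 8 mitosis), against 15.3% and 19.2% of all genes, with medians of -0.97 and -0.49. LP1 and LP4 are both set against the same Ctrl library, so their ratios to it are not independent.

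TMM scaling raised the median of all genes by 0.22 in LP4 over Ctrl, by 0.15 in LP4 over LP1 and by 0.07 in LP1 over Ctrl. With it, 5 genes were higher and 12 lower in LP4 than in Ctrl, the 2 added being *Mki67* at a log2 ratio of 0.66 and *Cenpa* at 0.59, and *Mki67* was also past the fold in LP4 over LP1 at 0.59. The mitosis median of LP4 over Ctrl was then -0.057, and the replication median -0.35, beside 0.14 for all genes. Scaling moved every gene of a pair by the same constant, so the distance of each list from all genes was unchanged. The share of all genes past the fold was not counted with TMM scaling.

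**Figure D2:**
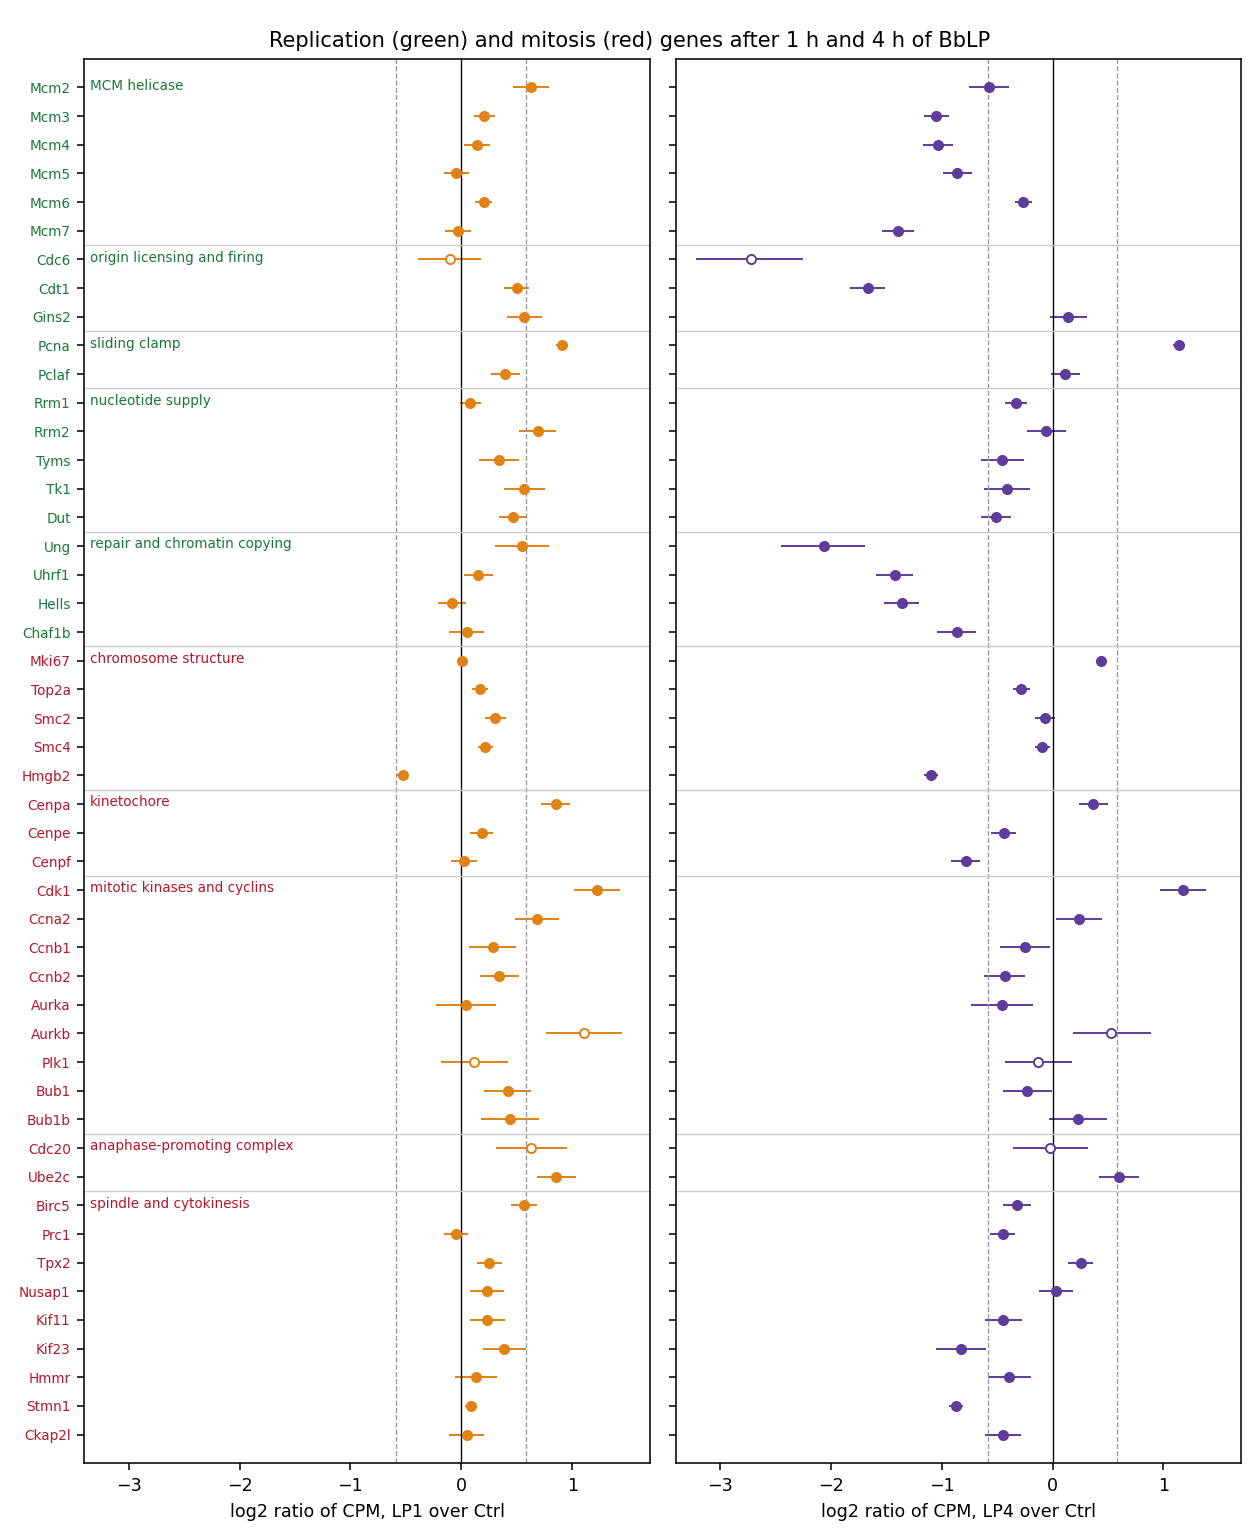
Log2 ratio of CPM of each of the 48 genes in LP1 over Ctrl (left) and LP4 over Ctrl (right), ordered by role, with replication genes in green and mitosis genes in red type. Lines are 95% counting intervals, dashed lines mark 1.5-fold, and open points are the 4 genes under the filter; on the left the 7 higher genes stand right of the upper dashed line, and on the right the 4 repair and chromatin genes and *Mcm3*, *Mcm4*, *Mcm5* and *Mcm7* stand left of the lower one.

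The helicase and its loaders were low in LP4. The 6 MCM genes, subunits of the ring that opens DNA, summed to 202 CPM (Ctrl), 227 (LP1) and 122 (LP4). *Mcm5* was at 28.5 CPM (Ctrl), 27.7 (LP1) and 15.7 (LP4), which made LP4 lower than Ctrl by a log2 ratio of -0.86 (-0.99 to -0.73). *Mcm7* was at 28.7, 28.1 and 10.9 CPM, with a log2 ratio of -1.39 (-1.53 to -1.25). Ctrl and LP1 lay side by side for both, and LP4 stood below them. *Mcm3* and *Mcm4* were lower in LP4 too, at -1.05 and -1.03, whereas *Mcm2* at -0.57 and *Mcm6* at -0.26 did not pass the fold, and *Mcm2* was higher in LP1 at 0.63. *Cdt1*, which brings the ring to origins, was at 26.2 CPM (Ctrl), 37.1 (LP1) and 8.26 (LP4), so that LP4 was 3.17-fold below Ctrl and 4.49-fold below LP1. *Cdc6* (chr11:98907801-98923940), which acts with CDT1, was seen with 180 (Ctrl), 246 (LP1) and 47 UMIs (LP4), or 5.04, 4.69 and 0.765 CPM. On the log2 scale LP4 over Ctrl was -2.72 (-3.22 to -2.25), but its mean of 3.50 CPM lies under the filter, so it is not among the 13 genes, and it is named here after its values were seen. *Gins2*, a subunit of the active helicase, was at 13.0, 19.3 and 14.4 CPM and passed the fold in neither ratio to Ctrl.

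The clamp gene went the other way. *Pcna* (chr2:132249162-132253314) was at 105 CPM (Ctrl), 196 (LP1) and 230 (LP4), 1.88-fold and 2.20-fold over Ctrl, with log2 ratios of 0.91 (0.86 to 0.96) and 1.14 (1.09 to 1.19). Both treated libraries stood above Ctrl, and LP4 over LP1 was 0.23. The protein also serves in DNA repair, and which of its roles goes with these levels was not tested. The gene was not limited to cells rich in the other genes of the list, as given below. In LP4, 22.4% of its UMIs lay in such cells. Other genes were spread as well, with 28.7% for *Mki67* and 31.0% for *Cdt1*, and the replication median was 48.8%. *Pclaf*, which encodes a PCNA-binding protein, was at 19.9, 26.3 and 21.6 CPM and passed the fold in no pair.

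The genes of nucleotide supply lay closer to Ctrl after 4 hours. *Rrm1* and *Rrm2* (ribonucleotide reductase), *Tyms* (thymidylate synthase), *Tk1* (thymidine kinase) and *Dut* (which removes dUTP) summed to 93.8 CPM (Ctrl), 119 (LP1) and 73.4 (LP4). None of the 5 passed the fold in LP4 over Ctrl, where the log2 ratios ran from -0.51 to -0.06. *Rrm2* was higher in LP1 than in Ctrl at 0.69, and *Rrm2*, *Tyms*, *Tk1* and *Dut* were lower in LP4 than in LP1.

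All 4 genes of repair and chromatin copying were lower in LP4 than in Ctrl. *Ung*, the enzyme that cuts uracil out of DNA, was at 5.72 CPM (Ctrl), 8.33 (LP1) and 1.37 (LP4), the lowest ratio of the list above the filter in both LP4 over Ctrl (-2.06) and LP4 over LP1 (-2.61). *Uhrf1*, which guides maintenance of DNA methylation at the fork, was at 21.8, 24.3 and 8.13 CPM, with log2 ratios of -1.43 to Ctrl and -1.58 to LP1. *Hells*, a chromatin remodeller, was at 23.2, 21.9 and 9.02 CPM, and *Chaf1b*, a subunit of the histone chaperone CAF-1, at 15.5, 16.0 and 8.50 CPM. For all of these LP4 was the low library, and Ctrl and LP1 differed by less than 1.5-fold.

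**Figure D3:**
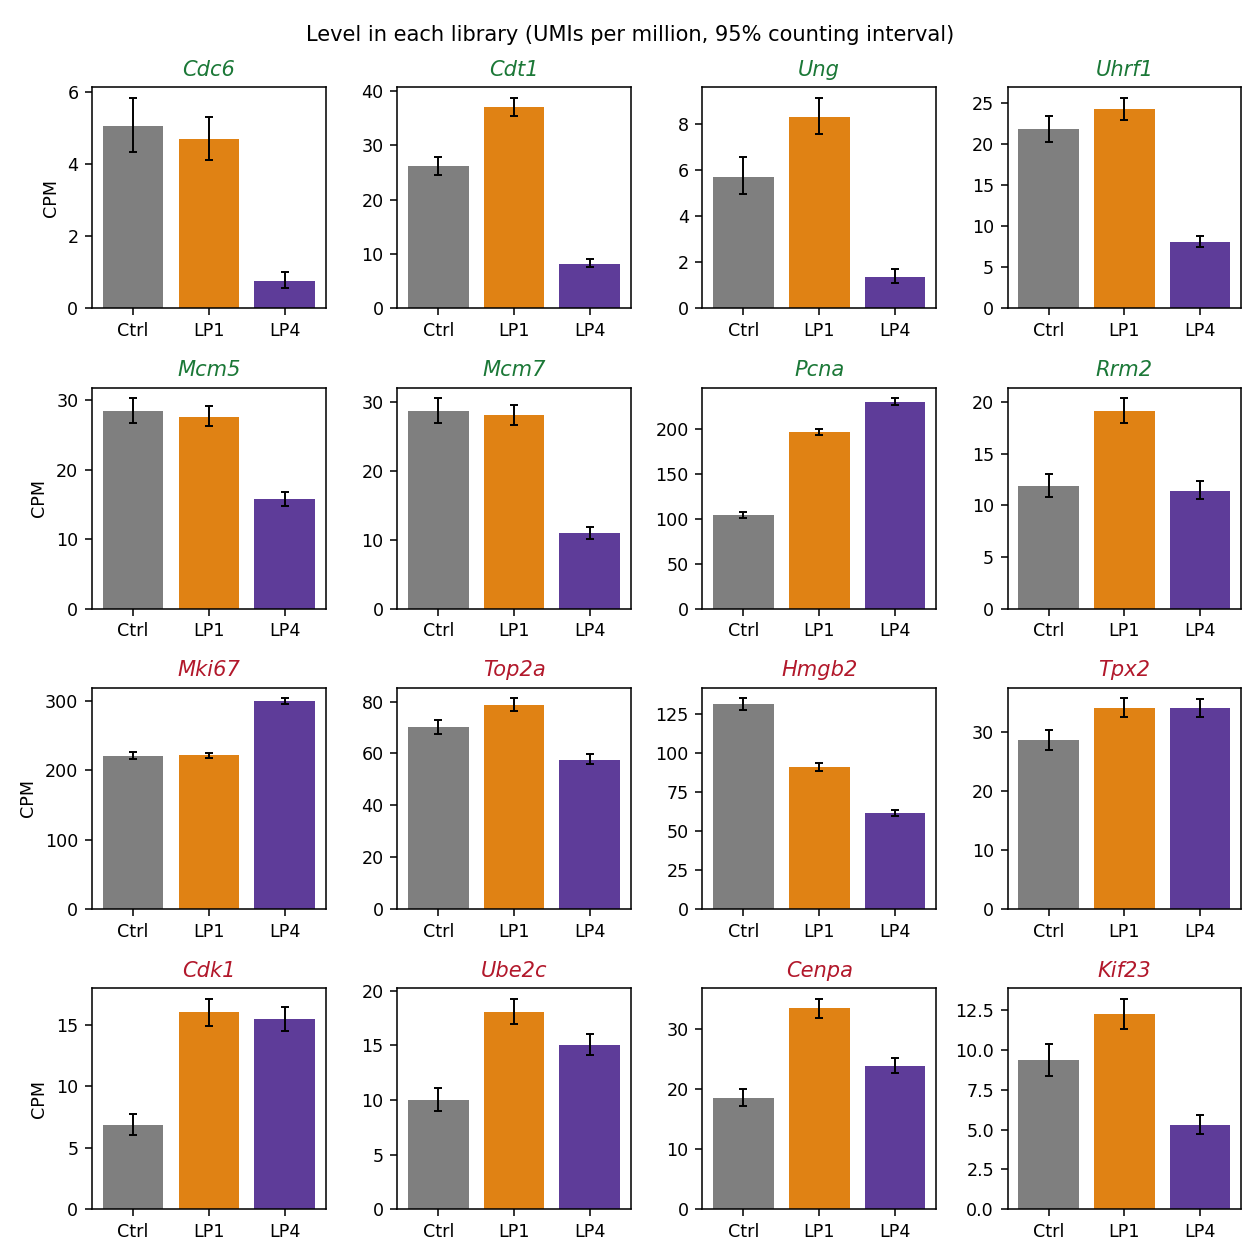
Bars give CPM in Ctrl, LP1 and LP4 for 16 genes (replication in green type, mitosis in red), each axis starting at 0, with 95% Poisson intervals. *Cdc6*, *Cdt1*, *Ung*, *Uhrf1*, *Mcm5* and *Mcm7* show a short LP4 bar, *Pcna* and *Cdk1* show tall bars in both treated libraries, and *Mki67* has its tallest bar in LP4 at 299 CPM.

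Among the mitosis genes, those of chromosome structure kept a summed level of 533 to 544 CPM in the 3 libraries while single genes differed. *Mki67* (chr7:135689784-135716361), which codes for the coat protein of mitotic chromosomes that is widely stained to mark dividing cells, was at 221 CPM (Ctrl), 221 (LP1) and 299 (LP4), with 0.44 (0.40 to 0.48) on the log2 scale for LP4 over Ctrl, within 1.5-fold. *Top2a*, the enzyme that untangles DNA, was at 70.1 CPM (Ctrl), 78.8 (LP1) and 57.6 (LP4), within 1.5-fold in each pair. *Hmgb2*, a DNA-bending protein, was at 131, 90.9 and 61.3 CPM, and was lower in LP4 than in Ctrl at -1.10. Its LP1 ratio of -0.53 was the lowest in LP1 over Ctrl among the 44 genes above the filter, followed by *Hells* at -0.08 and *Prc1* at -0.05, and none of these passed the fold. *Prc1*, which bundles microtubules at the middle of the spindle, was at 32.4, 31.4 and 23.7 CPM.

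The genes of mitotic entry had their highest summed level in LP1. The 9 kinase and cyclin genes together came to 60.0 CPM (Ctrl), 87.0 (LP1) and 64.8 (LP4). *Cdk1* (chr10:69335146-69352938), the kinase that drives entry into mitosis, was at 6.86 CPM (Ctrl), 16.0 (LP1) and 15.5 (LP4), 2.33-fold and 2.25-fold over Ctrl, the highest ratio to Ctrl of the list at both times. *Ccna2*, its S and G2 phase cyclin, was higher in LP1 than in Ctrl at 0.68 and at 0.24 in LP4, within the fold. *Ccnb1* and *Ccnb2*, the mitotic cyclins, were within 1.5-fold of Ctrl in both treated libraries, and *Ccnb2* was lower in LP4 than in LP1 at -0.78. *Ube2c*, the enzyme that passes ubiquitin to targets of the anaphase-promoting complex, was at 9.98 CPM (Ctrl), 18.1 (LP1) and 15.1 (LP4), 1.81-fold and 1.51-fold over Ctrl, the second value lying at the fold itself. *Aurkb*, *Plk1* and *Cdc20*, a pair of mitotic kinases and an activator of that complex, stayed under the filter at 2.66 to 5.72 CPM. In that order, their log2 ratios were 1.10, 0.12 and 0.63 in LP1 over Ctrl. In LP4 over Ctrl they were 0.53, -0.13 and -0.02. Being under the filter, they are not counted among the higher genes.

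At the kinetochore, *Cenpa*, the histone that marks centromeres, was at 18.6 CPM (Ctrl), 33.5 (LP1) and 23.97 (LP4) and was higher in LP1 than in Ctrl at 0.85. *Cenpf* was lower in LP4 than in Ctrl at -0.78, and *Cenpe*, a motor, was at -0.44. The 9 spindle and cytokinesis genes summed to 284 CPM (Ctrl), 318 (LP1) and 202 (LP4). In LP4, 2 of them (22.2%) were lower than in Ctrl, near the 23.6% of all genes. These were *Stmn1*, which takes microtubules apart, at 132, 140 and 72.4 CPM (-0.87), and *Kif23*, a motor of the central spindle, at 9.33, 12.2 and 5.28 CPM (-0.82). *Tpx2* (chr2:152847964-152895321), which builds the spindle and activates Aurora A, was at 28.6 CPM (Ctrl), 34.1 (LP1) and 34.1 (LP4). With *Mki67* at 0.43 and *Pcna* at 0.23, its ratio of -0.00 made up the 3 highest of LP4 over LP1 among the genes above the filter, and *Ung*, *Cdt1* and *Uhrf1* were the 3 lowest of these.

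The rest of both pathways was counted by the same rule. Over all genes that passed the filter, 4.17% were higher and 2.84% lower in LP1 than in Ctrl. In LP4, 19.1% of all genes were higher and 23.6% lower than in Ctrl. Of the genes that passed, 59.6% of the other replication list and 41.8% of the other mitosis list were lower in LP4. Of 71 other replication genes, 57 passed the filter, of which 1 was higher and none lower in LP1 than in Ctrl, and 2 were higher and 34 lower in LP4 (median -0.77). *Cdca7*, a partner of HELLS, was at 8.15, 7.58 and 0.668 CPM in Ctrl, LP1 and LP4, and *E2f2*, an activating E2F factor, at 11.7, 12.6 and 2.93 CPM, the 2 lowest ratios of LP4 over Ctrl. *Orc4* and *Orc3*, subunits of the origin recognition complex, were the 2 highest at 0.84 and 0.66. In LP1 over Ctrl the ends were *Tipin* at 0.83, which was the 1 higher gene, and *Orc6* at 0.57, against *Rfc3* at -0.52 and *Pole3* at -0.34. Of 84 other mitosis genes, 55 passed, with 4 higher and none lower in LP1 than in Ctrl, and 4 higher and 23 lower in LP4 (median -0.49). *Incenp*, of the chromosomal passenger complex, and *Ncaph*, of condensin, were lowest in LP4 over Ctrl at -1.28 and -1.22, and *Mad2l1*, a spindle checkpoint gene, and *Cks1b*, which codes for a subunit of CDK1 complexes, highest at 0.77 for both. In LP1 over Ctrl, *Cks1b* at 0.93 and *Cks2* at 0.71 were the highest, and *Cenpw* at -0.26 and *Cdc25b* at -0.23 the lowest.

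Regulators of the cycle, most of which hold it back, were counted beside them. Of 26 such genes, 23 passed the filter, with 5 higher and none lower in LP1 than in Ctrl, and 9 higher and 4 lower in LP4 (median 0.37). The higher share was 21.7% in LP1, against 4.17% of all genes. In LP4, 39.1% were higher and 17.4% lower, against 19.1% and 23.6% of all genes. *Btg1*, an antiproliferative gene, was at 248 CPM (Ctrl), 377 (LP1) and 576 (LP4). *Mdm2*, a target of p53 that as its inhibitor does not itself hold the cycle back, was at 314, 370 and 839 CPM. *Btg2*, a relative of *Btg1*, was at 44.1, 85.2 and 12.2 CPM, higher in LP1 and lower in LP4 than in Ctrl, and *Wee1*, the kinase that holds CDK1 inactive, was lower in LP4 at -1.63. *Cdkn2c*, an inhibitor of CDK4 and CDK6, was higher in LP1 at 1.11, and *Lin37* and *Fzr1* were the lowest there at -0.52 and -0.39.

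UMIs of the 48 genes were spread unevenly over the cells. At 2000 UMIs per cell the median cell held 1 UMI of the list in each library, and 29.0% (Ctrl), 25.4% (LP1) and 25.2% (LP4) of cells held none. Cells with at least 5 UMIs of the list, called rich cells here, were 13.7% (12.8 to 14.6) of 5949 cells in Ctrl, 16.6% (15.6 to 17.7) of 5052 in LP1 and 10.6% (9.72 to 11.5) of 4625 in LP4. These intervals count cells within 1 library each and do not cover the spread between libraries of a condition. Rich cells held 60.2%, 63.4% and 47.5% of the thinned UMIs of the list. The order of LP4 and Ctrl depended on the limit, since with at least 3 UMIs the shares were 26.7%, 31.6% and 27.3% in the order Ctrl, LP1, LP4. Rich cells are a range and not a cell type, with 242, 266 and 191 cells at 5 or 6 UMIs and 775, 755 and 774 cells at 3 or 4. Rich cells in which replication UMIs outnumbered mitosis UMIs were 4.00% (Ctrl), 6.14% (LP1) and 3.20% (LP4) of cells, and those with more mitosis UMIs 8.83%, 9.50% and 6.94%. This split counts *Pcna*, and its part in the difference between libraries was not tested. Replication genes gave 34.1% (33.4 to 34.9) of the list's UMIs in Ctrl, 40.2% (39.4 to 40.9) in LP1 and 37.3% (36.4 to 38.2) in LP4. Without *Pcna* the shares were 28.9% (28.2 to 29.7), 31.6% (30.8 to 32.4) and 23.9% (23.0 to 24.8), so the order of Ctrl and LP4 turned with this gene. Within rich cells, *Pcna* included, the shares were 31.3%, 35.9% and 31.0%. The intervals of the replication shares treat UMIs as independent, although many lay in the same rich cells. They therefore do not cover the spread between cells of a library.

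**Figure D4:**
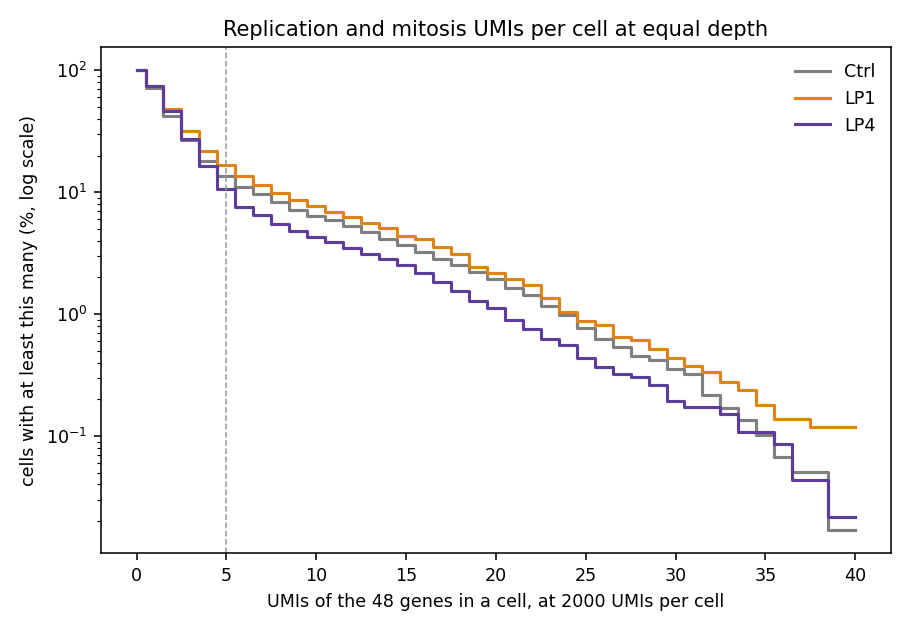
Percent of cells (log scale) with at least the number of UMIs of the 48 genes on the x axis, each cell thinned to 2000 UMIs, for Ctrl (grey), LP1 (orange) and LP4 (purple). At the dashed line of 5 UMIs the curves stand at 13.7%, 16.6% and 10.6%, and at 3 UMIs the Ctrl and LP4 curves meet.

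Rich cells were deeper than the others and held more neutrophil transcripts. Before thinning, their median depth was 7019 UMIs (Ctrl), 12268 UMIs (LP1) and 16598 UMIs (LP4). Neutrophil markers summed to 1381, 1018 and 2455 CPM in rich cells of Ctrl, LP1 and LP4 against 72.2, 57.2 and 210 CPM in the others, and macrophage markers to 8537 to 9445 CPM against 11366 to 12662. The 32, 24 and 29 cells with at least 1% of their UMIs from neutrophil markers held 1.82%, 1.63% and 2.41% of the list's UMIs. Of the rich cells, 17 of 813 (Ctrl), 16 of 840 (LP1) and 14 of 490 (LP4) were such cells. Among cells with at least 20 UMIs of the list, 13 of 116, 11 of 110 and 11 of 52 were. Without the cells of other types, 3 genes were higher and 14 lower in LP4 than in Ctrl, and the share of all genes was not counted there.

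To see where the ratios of LP4 over Ctrl arose, each gene was measured in cells rich in the other 47 genes (at least 5 thinned UMIs of them) and in all other cells. These cells were chosen by the list itself, so levels within them are set against each other between libraries only. Genes that choose the cells, such as *Pcna* and *Mki67*, also differed in level between libraries, so rich cells of different libraries may not be alike. In rich cells all 48 genes passed the filter, and 5 were higher and 13 lower in LP4 than in Ctrl, where 20.3% and 19.6% of all 9351 genes were higher and lower. The values of all genes, here and for the other cells, come from cells split by all 48 genes, so the cells are not exactly the same. The replication genes had a median log2 ratio of -0.67 with 1 higher and 11 lower of 20, and the mitosis genes a median of 0.13 with 4 higher and 2 lower of 28, beside -0.03 for all genes. With rich cells set at 3 UMIs the mitosis median changed sign, to -0.20, and the replication median was -0.82. In the other cells 25 of the 48 genes passed the filter, and 3 were higher and 12 lower, against 19.6% and 23.9% of all 8882 genes. Over all genes of each list, with no filter, the medians there were -0.62 for replication and -0.31 for mitosis.

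Within rich cells the lowest ratios belonged to replication genes. *Cdc6* was at 20.4 CPM (Ctrl), 17.0 (LP1) and 3.87 (LP4) (-2.40), *Ung* at 19.9, 24.3 and 4.22 CPM (-2.23) and *Uhrf1* at 94.2, 91.4 and 36.1 CPM (-1.38). The highest were *Cdk1* at 30.7, 61.8 and 87.3 CPM (1.51, 1.27 to 1.74), *Pcna* at 193, 334 and 451 CPM (1.23) and *Ube2c* at 47.02, 73.0 and 94.2 CPM (1.00). For the last 3, Ctrl was the low library, LP1 lay between and LP4 was high. *Cenpa* at 0.94 and *Aurkb* at 0.93 were the other mitosis genes past the fold upward, and *Hmgb2* at -0.79 and *Stmn1* at -0.63 those past it downward. *Top2a* was at 369, 349 and 370 CPM in the same cells.

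Outside the rich cells some mitosis genes were at odds with their list, and the genes of this paragraph are named after their values were seen. *Tpx2* was at 8.09 CPM (Ctrl), 8.57 (LP1) and 19.1 (LP4) outside the rich cells (1.24, 1.04 to 1.45), and at 128, 132 and 129 CPM inside them. *Mki67* was at 141, 130 and 240 CPM outside (0.77, 0.72 to 0.82) and at 658, 602 and 772 CPM inside (0.23). The share of its UMIs that lay in rich cells was 46.2% (Ctrl), 52.5% (LP1) and 28.7% (LP4). *Aurka* and *Kif11* were lower outside, as was the median of their list, with log2 ratios of -1.40 and -1.26 outside and 0.19 and -0.06 inside. Outside they were at 2.45 and 1.77 CPM in Ctrl and at 0.928 and 0.738 CPM in LP4, under the filter of 5 CPM. *Cdk1* outside was at 1.87, 3.93 and 4.01 CPM. Whether intronic reads were counted is not given in the sources used here, and their part in the levels outside the rich cells was not tested.

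**Figure D5:**
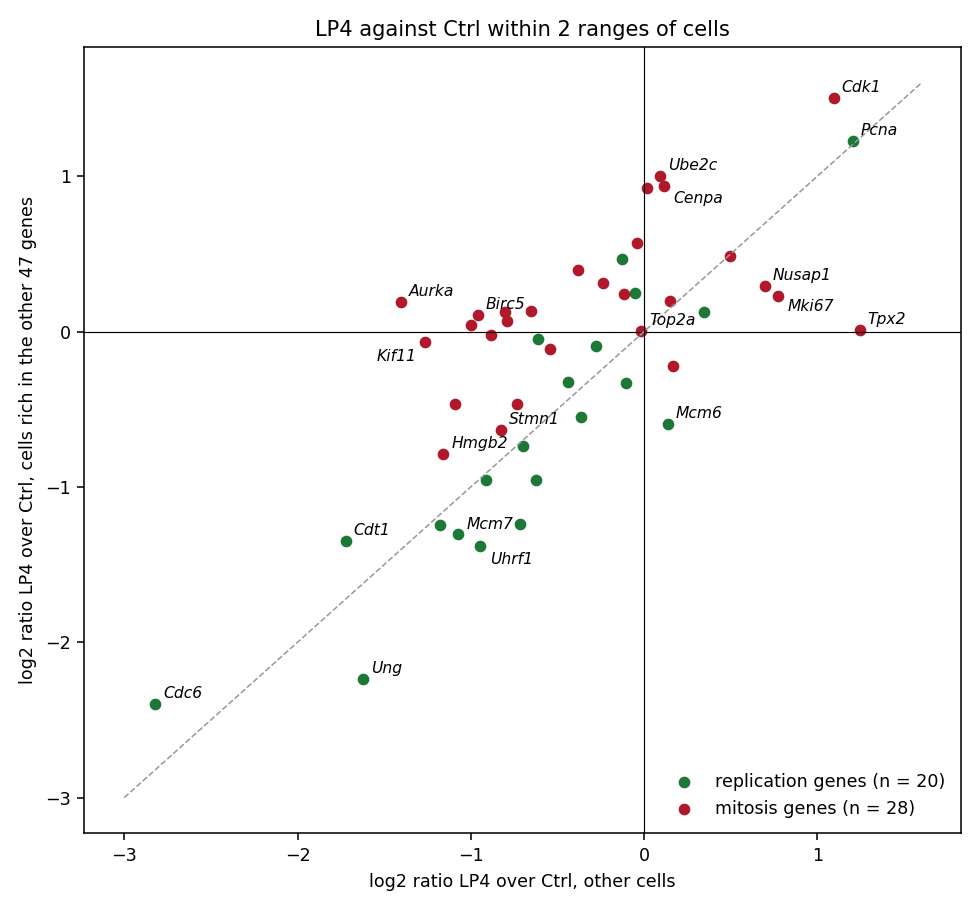
Log2 ratio of LP4 over Ctrl for each gene in cells rich in the other 47 genes (y axis) against that in all other cells (x axis), replication genes in green and mitosis genes in red, with the line of equality dashed. *Cdc6* and *Ung* are low on both axes, *Pcna* and *Cdk1* high on both, and *Tpx2* stands at 0.01 on the y axis and 1.24 on the x axis.

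Shares of cells with a UMI were taken at 2000 UMIs per cell. No cell type lacking these genes was set apart in the culture, so cells with no UMI of the other 47 genes (silent cells) served as the background. The name holds for the thinned counts only. Such cells may hold UMIs of these genes before thinning, so they are not shown to be outside the cell cycle. *Mki67* was seen in 26.3% (Ctrl), 26.6% (LP1) and 36.9% (LP4) of cells, and in 21.3%, 20.2% and 33.8% of silent cells, whose median depths before thinning were 4782, 8670 and 10917 UMIs. In rich cells it was seen in 59.3%, 59.4% and 67.2%. Without thinning the shares over all cells were 47.01%, 57.7% and 74.4%. *Pcna* was seen in 15.9%, 28.7% and 30.7% of cells (silent cells 13.0%, 23.8% and 26.8%, rich cells 30.9%, 44.8% and 46.5%). *Cdt1* was seen in 4.64%, 6.49% and 1.6% (silent cells 3.31%, 4.19% and 0.765%) and *Top2a* in 5.93%, 7.56% and 5.08% (silent cells 0.691%, 0.774% and 1.02%). *Top2a* was thus seen in few cells without other list UMIs, while *Mki67* and *Pcna* were seen in many, most so in LP4. For these silent cells, free RNA in the droplets was not told apart from the cells' own transcripts.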

How the data were processed

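Single-cell 3′ RNA-seq was done on 1 library each of Ctrl, LP1 and LP4, and the groups were taken from the labels. The authors made the count tables with Cell Ranger (7.1.0 in the submitters' processing notes) on the mouse mm10 transcriptome. As deposited, they are raw UMI counts per gene and cell barcode, with no normalization. Whether intronic reads were counted is not given in the sources used here, and replicates were pooled before capture.

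Kept cells had over 500 UMIs, over 500 detected genes and less than 5% of UMIs from mitochondrial genes. UMIs were summed per library and scaled to CPM, and genes with a mean of at least 5 CPM over the 3 libraries were counted as higher or lower past 1.5-fold. Intervals (95%) were exact Poisson for CPM, exact conditional binomial for ratios and exact binomial for shares, and cover counting error only. For *Cdt1*, 507 to 1945 UMIs stand behind each level. Cells with at least 2000 UMIs were thinned to 2000 without replacement (seed 20), which left out 122, 13 and 45 cells. A doublet caller marked 0, 1 and 1 cells and had therefore not worked, so the 5% of cells with the highest scores were left out as an alternative instead. Motifs were matched in RefSeq promoters, and gene positions were read from GENCODE vM21 (GRCm38). The genes named are *Mki67*, *Top2a*, *Pcna*, *Mcm5*, the 3 highest and 3 lowest ratios of each pair of libraries and within rich cells, and the 2 highest and 2 lowest of each other list for both ratios to Ctrl. The other genes are given as examples of their role. The genes and lists were chosen with earlier results of these data known. Protein motifs were not analysed here. The work was done in Python 3.11.15 with scanpy 1.11.5, scipy 1.17.1, numpy 2.4.6, matplotlib 3.10.9 and pandas 2.3.3, and in R 4.3.3 with edgeR 4.0.16 for TMM scaling. The log2 ratios with their intervals and the thinning step were tested on simulated data. For the ratios these were Poisson counts, the model that the intervals assume. The other steps were not tested in this way.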

Additional observations from a re-analysis of the deposited data

How the results depend on the processing

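No paired analysis was possible because each condition is 1 library. Of the results recomputed under the alternatives, 123 values stayed within counting error or within 1.5 times the reported count and 51 moved.

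With TMM scaling the medians of LP4 over Ctrl were -0.35 (replication) and -0.057 (mitosis), beside 0.14 for all genes. Those of LP4 over LP1 were -0.82 and -0.34, beside 0.07 for all genes. The higher genes were 11 in LP1 over Ctrl, 5 in LP4 over Ctrl and 1 in LP4 over LP1. With median-of-ratios scaling the LP4 over Ctrl medians were -0.37 and -0.076, beside 0.12 for all genes. The mitosis median of LP4 over LP1 was -0.36, beside 0.047 for all genes, and 11 genes were higher in LP1 over Ctrl. With each cell weighted equally, the mitosis medians were -0.48 for LP4 over Ctrl and -0.66 for LP4 over LP1, 22 genes were lower in LP4 over Ctrl and 1 in LP1 over Ctrl. TMM and median-of-ratios scaling moved all genes of a pair by the same constant. The cause of the shifts with equal cell weights was not tested. A filter of 20 CPM leaves 22 genes, which gave a replication median of 0.20 in LP1 over Ctrl, 2 higher genes in LP1 over Ctrl, 1 higher and 8 lower in LP4 over Ctrl and 10 lower in LP4 over LP1. By a lower threshold of 0.32 on the log2 scale, the higher and lower genes were 19 and 1 in LP1 over Ctrl, 5 and 25 in LP4 over Ctrl, and 1 and 35 in LP4 over LP1. By a fold of 2, 1 gene was higher in LP1 over Ctrl, 8 were lower in LP4 over Ctrl and 9 in LP4 over LP1. The shares of all genes were not counted under the alternatives of this paragraph, so its counts cannot be set against them.

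The share of rich cells in Ctrl, LP1 and LP4 was 26.7%, 31.6% and 27.3% at a limit of 3 UMIs, 6.42%, 7.68% and 4.28% at 10 UMIs, 6.59%, 8.35% and 5.05% when cells were thinned to 1000 UMIs, 29.5%, 31.5% and 28.0% when thinned to 4000, 36.9%, 65.2% and 75.7% without thinning, and 9.68%, 11.8% and 6.94% over 43 genes, leaving out *Stmn1*, *Hmgb2*, *Dut*, *Pcna* and *Smc4*. Without thinning the order follows the depth of the libraries. Rich cells at a limit of 3 UMIs, an alternative chosen after seeing the data, turned the mitosis median of LP4 over Ctrl from 0.13 to -0.20, and rich cells chosen by the other list alone, also added then, gave -0.74 for replication and 0.03 for mitosis. The replication share of the UMIs of the list without *Pcna*, chosen after seeing the data as well, was 28.9% (Ctrl), 31.6% (LP1) and 23.9% (LP4).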
